A study of Homo sapiens with 12 samples.

Results

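NTRK2, NTRK3, NGFR, RET, GFRA1, GFRA2, GFRA3 and ALK are receptors and co-receptors that govern survival and differentiation of sympathetic neuroblasts, and BDNF is the ligand of NTRK2. These 9 genes were taken by their symbols from the 19923 genes counted in each library, and all 9 were found. RNA was sequenced from the neuroblastoma lines SK-N-BE2 and NGP, both established from human tumours and labelled as wild type in genotype with amplified MYCN. SK-N-BE2 cells were kept for 6 days with 12 µM STM2457 or with DMSO, the solvent control, and NGP cells for 6 days with 1 µM STM2457 or with DMSO. STM2457 is a small-molecule inhibitor of METTL3, the enzyme that methylates adenosines of messenger RNA to N6-methyladenosine (m6A). Each of the 4 groups had 3 replicates. Each line is a single cell line, and nothing states whether replicates were separate cultures, so p-values measure only the spread between these samples, which may be technical. Line, dose and sequencing run changed together and cannot be told apart.

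NTRK2 and NTRK3 are receptor tyrosine kinases for the neurotrophins BDNF and NT-3, and NGFR (p75) binds all neurotrophins and works with them or alone. RET is the kinase that signals for the GDNF family of ligands, each of which reaches RET through a preferred co-receptor anchored on the membrane: GFRA1 for GDNF, GFRA2 for neurturin and GFRA3 for artemin. ALK is a receptor tyrosine kinase of developing sympathetic neurons and an oncogene of neuroblastoma, where NTRK2 with BDNF is classically linked to aggressive tumours with amplified MYCN.

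METTL3 acts on adenosines in a short consensus whose most frequent form is GGACT, written here as DNA. Methylation itself was not measured in these samples, so the matches describe only the letters of the transcripts. The following windows hold a match for 6 of the 9 members, on the GENCODE 44 canonical transcript (GRCh38). Each is the match nearest to the stop codon whose 21-base window lies within 1 exon. Bases are those of the mRNA strand, with the motif in capitals.
NTRK2: aaaatcggGGACTttgggatg
NTRK3: aagattggGGACTtcggcatg
NGFR: agagccatGGACTctacactg
RET: aaggtaatGGACTcacaaggg
ALK: atcagcctGGACTgctacctc
BDNF: gacccatgGGACTctggagag
The NTRK2 window (chr9:84955464-84955484, plus strand, exon 17 of 19) and the NTRK3 window (chr15:87929224-87929244, minus strand, exon 17 of 20) both lie in coding sequence, 388 and 430 bases before the stop codon, and are identical at 17 of 21 bases. The RET window (chr10:43128283-43128303, plus strand) lies in the 3′ UTR in exon 20 of 20, 24 bases after the stop codon, and the NGFR window (chr17:49513422-49513442, plus strand) in the 3′ UTR in exon 6 of 6, 423 bases after it. Those of ALK (chr2:29275406-29275426, minus strand, exon 10 of 29) and BDNF (chr11:27658431-27658451, minus strand, exon 2 of 2) are coding, 2965 and 620 bases before the stop codon. Every member had at least 1 match, against 87.8% of 20046 canonical mRNAs. Density ran from 0.251 matches per kb in BDNF and 0.437 in GFRA1 to 2.20 in GFRA2 and 2.52 in GFRA3, and the median of all mRNAs was 0.925. RET with 1.25, NTRK2 with 1.27, ALK with 1.28, NTRK3 with 1.10 and NGFR with 1.47 matches per kb were between these.

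The libraries held 47242379 to 58159937 counted reads. Levels are given as CPM, the reads of a gene scaled to a common library size with TMM factors, as mean ± SD (n = 3), and levels are compared between genes only as RPKM, which divides by the exon length of the gene model. A gene is called changed where the adjusted p of edgeR's quasi-likelihood test, fitted to all genes, was under 0.05. In each group 9 of 10 markers of the sympathetic neuroblast lineage reached 1 CPM. TH, the first enzyme of catecholamine synthesis, was the marker under 1 CPM in NGP. NGP DMSO replicate 1 stood apart from the other NGP DMSO libraries over genes as a whole, and so for several members. Fits of NGP and between the lines include it unless stated, and results whose call it changes are given with and without it.

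In DMSO the lines carried different receptors. By the fit, SK-N-BE2 had 8.60-fold more RET than NGP, and NGP had 62.4-fold more NTRK2, 80.2-fold more GFRA1, 19.9-fold more NGFR and 4.54-fold more ALK. The fit called 8 of 9 members different between the lines, 2 higher in SK-N-BE2 (RET and GFRA3) and 6 lower (NTRK2, NGFR, GFRA1, GFRA2, ALK and BDNF), where 71.1% of 14731 genes tested were called, 35.7% higher and 35.4% lower. The replicates of the lines did not overlap for 8 of 9 members, against 68.9% of all genes. NTRK3 was at 0.430 ± 0.137 CPM in SK-N-BE2 and 1.05 ± 0.553 CPM in NGP (log2 difference -1.29, SE 0.58, adjusted p = 0.0607). The median difference over the 9 genes was -1.29 on the log2 scale and 0.00 over all genes. Per length, RET led in SK-N-BE2 with 115 RPKM, ahead of NGFR with 3.07 and GFRA2 with 2.39 RPKM, and NGFR led in NGP with 61.1 RPKM, ahead of RET with 13.3 and GFRA1 with 11.9 RPKM.

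**Figure D1:**
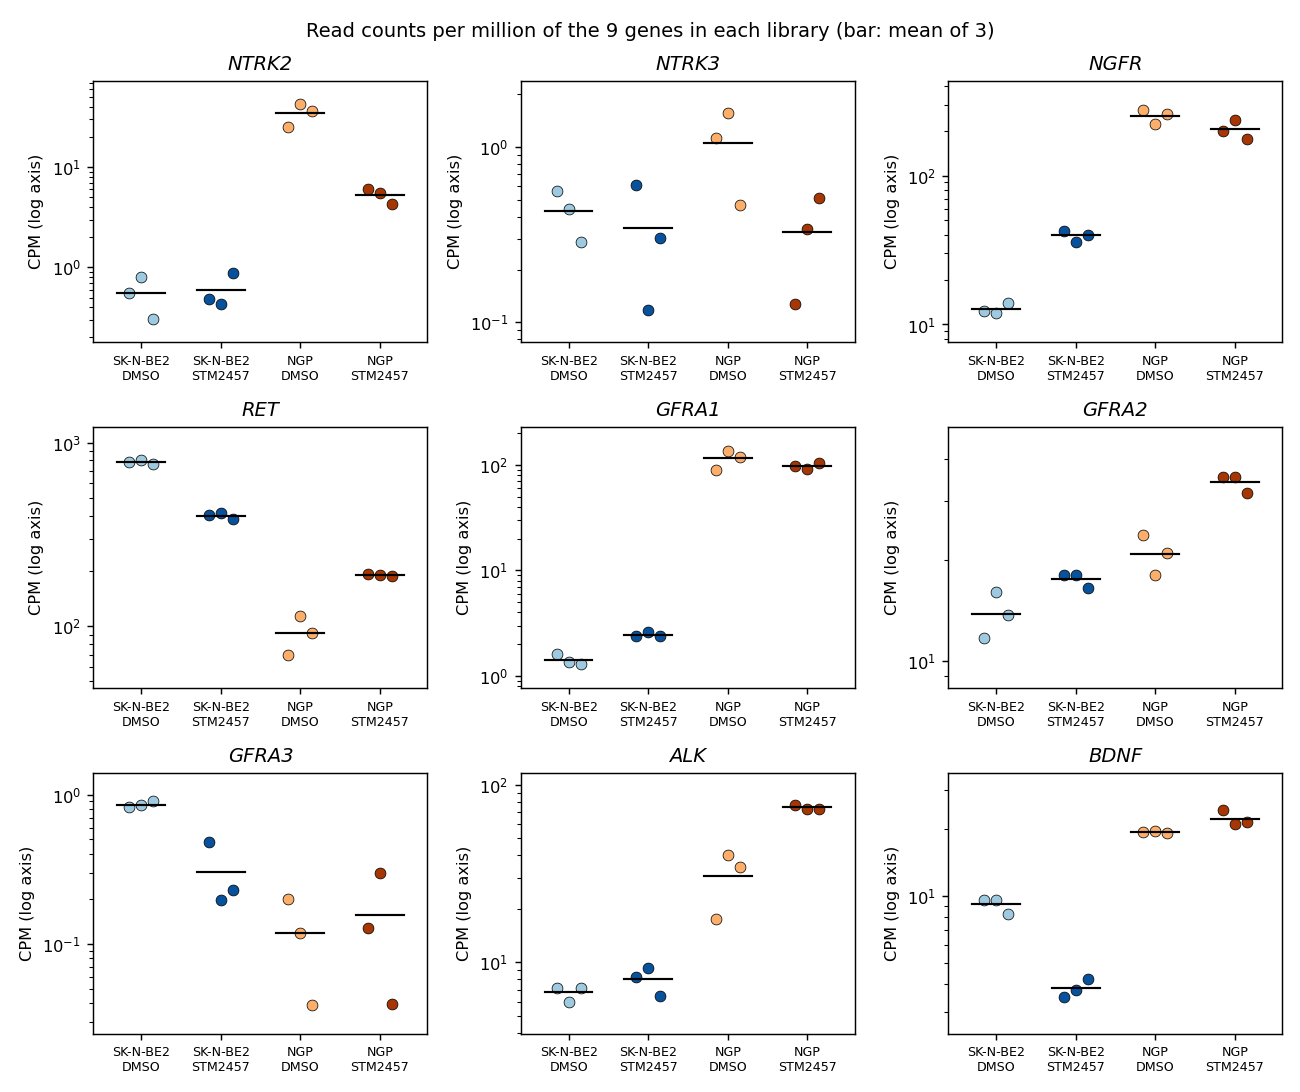
CPM on a log axis for each gene, 1 point per library and a bar at the mean of 3, in the 4 groups. RET goes down with STM2457 in SK-N-BE2 (787 to 399 CPM) and up in NGP (91.6 to 190 CPM), while NTRK2 is near 0 in SK-N-BE2 and drops in NGP from 34.8 to 5.29 CPM.

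After 6 days of STM2457, 6 of 9 members were called changed in SK-N-BE2, where 54.7% of 14013 genes were called (26.9% higher and 27.8% lower), and 5 of the 8 tested members in NGP, where 41.7% of 13610 genes were called (19.4% higher and 22.2% lower). NGFR, GFRA1 and GFRA2 rose and RET, GFRA3 and BDNF fell in SK-N-BE2, while RET, GFRA2 and ALK rose and NTRK2 and NTRK3 fell in NGP. GFRA2 was the member called with the same sign in both lines, and the share of all genes called so was not counted. Its SK-N-BE2 call (adjusted p = 0.0480) was lost in 5 of 6 fits with 1 library left out. RET was the member called with opposite signs, and 4.96% of 12952 genes tested in both lines were called with opposite signs. The members had a median log2 fold change of 0.06 in the SK-N-BE2 fit and -0.05 in the NGP fit, and all genes had -0.02 and -0.03, so the medians of the set lay close to those of all genes. Treated and DMSO replicates did not overlap for 6 of 9 members in SK-N-BE2 and for 5 of 8 in NGP, against 62.2% and 54.7% of genes.

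**Figure D2:**
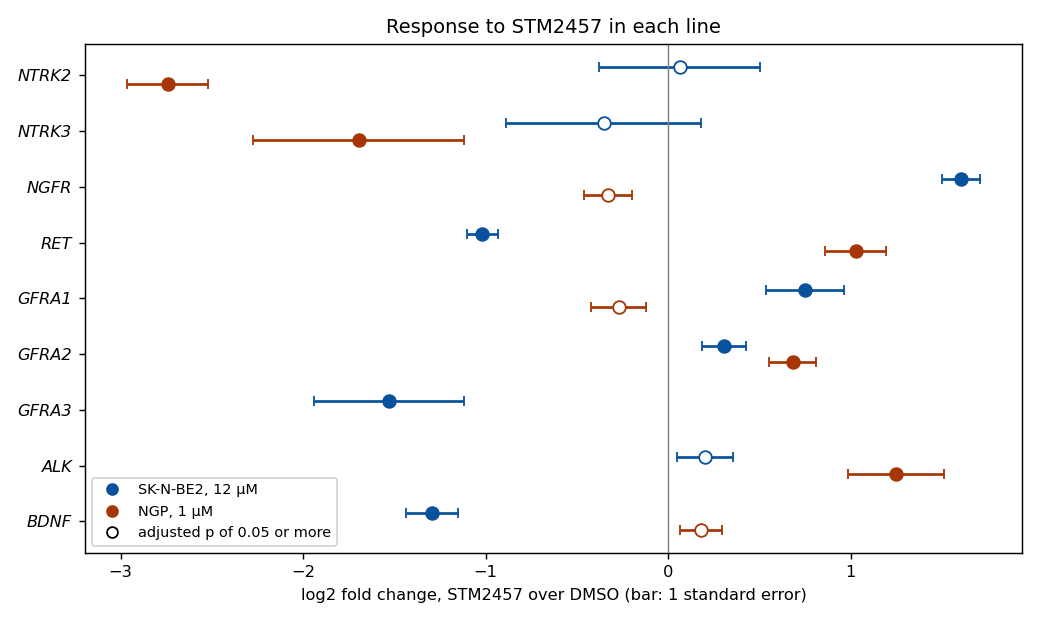
Log2 fold change of STM2457 over DMSO for each gene in SK-N-BE2 (12 µM) and NGP (1 µM), with bars of 1 standard error and open circles where the adjusted p was 0.05 or more. NTRK2 at -2.74 in NGP lies farthest from 0, NGFR at 1.60 is the highest in SK-N-BE2, and RET lies at -1.02 and 1.03 on opposite sides, while GFRA3 was not tested in NGP.

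NTRK2, the high-affinity receptor of BDNF (chr9:84668551-85027070, plus strand), lost most of its RNA in NGP. The NGP DMSO libraries had 25.3, 42.5 and 36.5 CPM and the STM2457 libraries 6.02, 5.52 and 4.34 CPM. All 3 treated libraries lay far below the lowest DMSO library, replicate 1. The fall was 6.69-fold (log2 fold change -2.74, SE 0.22, adjusted p = 5.15e-05) and -2.93 without DMSO replicate 1. In these bulk libraries fewer cells that express a gene and less RNA per cell cannot be told apart. SK-N-BE2 had 0.559, 0.805 and 0.306 CPM in DMSO and 0.480, 0.430 and 0.876 CPM in STM2457, 88 and 94 reads in all, and the groups overlapped (log2 fold change 0.06, SE 0.44, adjusted p = 0.916). The response of NTRK2 differed between the lines (difference, SK-N-BE2 minus NGP, 2.82, SE 0.46, adjusted p = 0.000390), from few reads on the SK-N-BE2 side. Reads were counted for the gene as a whole, so the full-length receptor and the truncated forms without the kinase are not separated.

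NTRK3, the receptor of NT-3 (chr15:87859751-88256768, minus strand), was at low level in every group. NGP had 1.13, 1.57 and 0.467 CPM in DMSO and 0.128, 0.342 and 0.513 CPM in STM2457, from 161 and 48 reads, and DMSO replicate 3 lay among the treated libraries. The NGP fall was called (log2 fold change -1.70, SE 0.58, adjusted p = 0.0436) but not without DMSO replicate 2 (adjusted p = 0.133), STM2457 replicate 1 (0.124) or STM2457 replicate 2 (0.113). In SK-N-BE2 the means were 0.430 ± 0.137 and 0.344 ± 0.248 CPM, the groups overlapped and the fold change was -0.35 (SE 0.53, adjusted p = 0.599).

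NGFR, the p75 receptor (chr17:49495293-49515008, plus strand), rose in SK-N-BE2 and was far higher in NGP. SK-N-BE2 had 12.3, 11.9 and 14.0 CPM in DMSO and 42.8, 36.1 and 40.2 CPM in STM2457. Every treated library was above every DMSO library, a rise of 3.04-fold (log2 fold change 1.60, SE 0.10, adjusted p = 6.26e-08). NGP had 277, 223 and 258 CPM in DMSO and 200, 238 and 176 CPM in STM2457, and its groups overlapped (log2 fold change -0.33, SE 0.13, adjusted p = 0.0779). The NGP fall did pass without DMSO replicate 2 (adjusted p = 0.0434) or STM2457 replicate 2 (0.0494). The responses of the lines differed by 1.94 (SE 0.17, adjusted p = 2.85e-06), and the order of the groups was NGP with DMSO and NGP with STM2457, which overlapped, then SK-N-BE2 with STM2457 and SK-N-BE2 with DMSO. NGFR is also made by Schwann cells. The summed level of 6 other Schwann cell markers (7 listed, 6 found) was 3.15 to 3.62 CPM in SK-N-BE2 with DMSO and 5.18 to 5.80 CPM with STM2457, with FOXD3 and CDH19 at 0 reads, and 2.68 to 3.57 and 0.868 to 1.03 CPM in NGP. SOX10, the defining transcription factor of that lineage, had group means of at most 0.0577 CPM. Other markers were above this, and 2 of the 6 reached 1 CPM in every group except NGP with STM2457, which had 0. The fits tested 2 of these markers per line. In SK-N-BE2 1 was called as rising and 0 as falling, and in NGP 2 were called as falling. Whether cells of that lineage contributed to the NGFR count was not tested. An unnamed transcript on the other strand covers 22.3% of the NGFR exon length and NGFR-AS1 4.88%. The counting set no strand, so reads of these transcripts cannot be separated from those of NGFR. Their share of the NGFR count was not measured.

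BDNF, the ligand of NTRK2 and NGFR (chr11:27654893-27722058, minus strand), fell in SK-N-BE2. Its libraries had 9.60, 9.60 and 8.30 CPM in DMSO and 3.51, 3.77 and 4.23 CPM in STM2457, with no overlap, a fall of 2.45-fold (log2 fold change -1.29, SE 0.14, adjusted p = 6.02e-06). NGP had 19.4, 19.6 and 19.2 CPM in DMSO and 24.5, 21.1 and 21.5 CPM in STM2457. The treated NGP libraries were all higher, but the change was not called (0.18, SE 0.11, adjusted p = 0.235). The responses differed by -1.46 (SE 0.16, adjusted p = 2.09e-05). BDNF-AS covers 12.8% of the BDNF exon length on the other strand, and reads of the pair cannot be separated.

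Of the other 13 genes of neurotrophin signalling listed, 9 were tested in SK-N-BE2 (3 higher, 4 lower, median log2 fold change -0.17) and 10 in NGP (2 higher, 4 lower, median -0.41), where 54.7% and 41.7% of all genes were called, with medians of -0.02 and -0.03. SORT1, the sorting receptor that pairs with NGFR for pro-neurotrophins, rose with NGFR in SK-N-BE2, from 75.9 to 131 CPM (0.75, adjusted p = 1.54e-05). In NGP SORT1 was at 74.9 and 61.7 CPM (-0.30, adjusted p = 0.0353). That call was lost without each library but DMSO replicate 1, up to 0.137, and with a replicate block (0.0918). The SORT1 relatives SORCS1 and SORCS2 had log2 fold changes of -0.46 (adjusted p = 0.000411) and -0.17 (0.393) with SK-N-BE2 cells, and of -0.52 (0.0334) and -0.41 (0.0162) with NGP cells, and SORCS3 was at 0 reads in all SK-N-BE2 libraries. RTN4R, the Nogo receptor that uses NGFR as its signalling partner, fell in SK-N-BE2 (-1.30, adjusted p = 3.95e-05) and had -0.60 in NGP (0.0772), which was called with DESeq2 (0.0392) and without DMSO replicate 2 (0.0383) or STM2457 replicate 2 (0.0201). LINGO1, another part of that complex, had -0.27 in SK-N-BE2 (adjusted p = 0.0479) and -0.49 in NGP (0.0157). In NGP the SORCS1, SORCS2 and LINGO1 calls were lost without DMSO replicate 3, STM2457 replicate 1 or STM2457 replicate 3. That of SORCS1 was also lost without DMSO replicate 2 or STM2457 replicate 2. The LINGO1 call of SK-N-BE2 was lost without DMSO replicate 3 or any treated library. It was also lost with DESeq2 size factors (0.0544), a replicate block (0.0678) or a joint fit of all 12 libraries (0.157). NTF3 and NTF4, further ligands of these receptors, had at most 6 reads summed over a group and were not tested.

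RET (chr10:43077064-43130351, plus strand) moved in opposite directions, toward each other, in the lines. SK-N-BE2 had 788, 809 and 765 CPM in DMSO and 402, 413 and 382 CPM in STM2457. These groups lay well apart, a fall of 2.03-fold (log2 fold change -1.02, SE 0.08, adjusted p = 5.53e-07). NGP had 69.4, 114 and 91.5 CPM in DMSO and 193, 190 and 187 CPM in STM2457. Every treated NGP library was above the highest DMSO library, a rise of 2.04-fold (1.03, SE 0.17, adjusted p = 0.00164), and 0.86 without DMSO replicate 1, the lowest. The responses differed by -2.03 (SE 0.19, adjusted p = 3.78e-06). The gap between the lines in DMSO was 8.60-fold by the fit (3.10 on the log2 scale). It was thus smaller in STM2457, where the mean CPM of SK-N-BE2 was 2.10-fold that of NGP. None of the 4 groups overlapped its neighbour in level.

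The RET promoter, 250 bases before to 50 after the GENCODE 44 canonical start (chr10:43076819-43077118, plus strand, GRCh38), is shown because RET changed in both lines with opposite signs. That of ALK (chr2:29921537-29921836, minus strand) is given beside it because ALK rose with RET in NGP. GFRA2 rose there as well and was also called in both lines, but its promoter is not shown. Both printed sequences read 5′ to 3′ on the gene's strand, with matches to the searched motifs on either strand in capitals.
RET: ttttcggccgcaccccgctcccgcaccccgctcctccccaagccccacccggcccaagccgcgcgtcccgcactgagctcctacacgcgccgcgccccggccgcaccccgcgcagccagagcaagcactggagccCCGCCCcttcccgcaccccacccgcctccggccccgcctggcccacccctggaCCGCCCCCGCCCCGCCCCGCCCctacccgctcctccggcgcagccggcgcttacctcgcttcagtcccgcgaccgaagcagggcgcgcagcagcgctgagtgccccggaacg
ALK: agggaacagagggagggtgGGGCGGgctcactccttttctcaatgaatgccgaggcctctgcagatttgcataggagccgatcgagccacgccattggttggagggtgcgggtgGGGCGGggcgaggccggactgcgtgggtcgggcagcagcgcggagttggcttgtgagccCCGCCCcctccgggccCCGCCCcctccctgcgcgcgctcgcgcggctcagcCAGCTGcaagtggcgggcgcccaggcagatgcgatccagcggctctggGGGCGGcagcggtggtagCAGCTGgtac
The search covered CACGTG (the E-box form bound by MYC proteins), CAGCTG (another E-box form), GGGCGG (GC box), GCGNGGGCG (EGR site) and TGACGTCA (cAMP response element). RET had 5 GC boxes, a motif in 61.3% of 20046 promoters of this length, and 1 EGR site overlapping them, found in 14.0%. ALK had 5 GC boxes and 2 CAGCTG matches, a motif in 17.7% of promoters. Neither held CACGTG (8.75% of promoters) or TGACGTCA (2.69%) in these 300 bases. GC content was 78.7% for RET and 71.0% for ALK, and the median promoter had 63.7%.

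The co-receptors of RET differed in kind between the lines. GFRA1, which presents GDNF (chr10:116056925-116273467, minus strand), was at 1.61, 1.37 and 1.30 CPM in SK-N-BE2 with DMSO and at 2.38, 2.62 and 2.40 CPM with STM2457. It rose 1.68-fold with no overlap (0.75, SE 0.22, adjusted p = 0.00955) but stayed 39.3-fold below NGP with STM2457. NGP had 89.8, 136 and 119 CPM in DMSO and 96.8, 90.5 and 103 CPM in STM2457, and DMSO replicate 1 lay below the treated libraries. The NGP change was -0.27 (SE 0.15, adjusted p = 0.184), and without DMSO replicate 1 it was a called fall of -0.42 (adjusted p = 0.00168). The GFRA1 responses differed by 1.03 (SE 0.21, adjusted p = 0.00214). An unnamed transcript on the other strand covers 3.95% of the GFRA1 exon length, and reads of the pair cannot be separated.

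GFRA2, the neurturin co-receptor (chr8:21690398-21812357, minus strand), rose in both lines. SK-N-BE2 had 11.7, 16.0 and 13.7 CPM in DMSO and 18.0, 18.0 and 16.5 CPM in STM2457, and NGP had 23.7, 18.0 and 20.9 CPM in DMSO and 35.4, 35.2 and 31.6 CPM in STM2457. Neither pair of groups overlapped, although DMSO replicate 2 of SK-N-BE2 came near the treated libraries. The NGP rise was 1.61-fold (0.68, SE 0.13, adjusted p = 0.00355). The SK-N-BE2 rise was smaller (0.31, SE 0.12, adjusted p = 0.0480) and was lost without any library but DMSO replicate 2, with adjusted p up to 0.156. The difference between the lines was -0.36 (SE 0.18, adjusted p = 0.151).

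GFRA3, the artemin co-receptor (chr5:138252380-138274621, minus strand), was scarce. SK-N-BE2 had 0.822, 0.845 and 0.899 CPM in DMSO and 0.480, 0.195 and 0.228 CPM in STM2457, 136 and 48 reads in all. The treated libraries were all lower (-1.53, SE 0.41, adjusted p = 0.00620). NGP had 18 reads in its DMSO libraries together and 22 in its STM2457 libraries, too few to be tested. The difference of -1.87 was not called (SE 0.91, adjusted p = 0.136).

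Per length, GFRA2 held 80.3 ± 2.64% of the co-receptor sum in SK-N-BE2 with DMSO and 88.2 ± 1.53% with STM2457, while GFRA3 went from 14.6 ± 1.66% to 4.36 ± 2.05%. In NGP GFRA1 held 75.8 ± 6.44% with DMSO and 62.6 ± 3.10% with STM2457, and GFRA2 23.8 ± 6.20% and 36.9 ± 2.71%. RET was in large excess over the 3 co-receptors in SK-N-BE2, with an RPKM ratio of 39.0 ± 4.56 in DMSO and 16.9 ± 0.604 in STM2457. In NGP the ratio was 0.850 ± 0.108 and 1.73 ± 0.0450, and the replicates of treated and DMSO libraries did not overlap in either line. Whether a ratio near 1 lies below or above it depends on the lengths used. The gene models gave 6874 bases for RET and 9678 for GFRA1, and the canonical transcripts have 5617 and 9161. These ratios compare RNA and not protein, and were not tested.

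**Figure D3:**
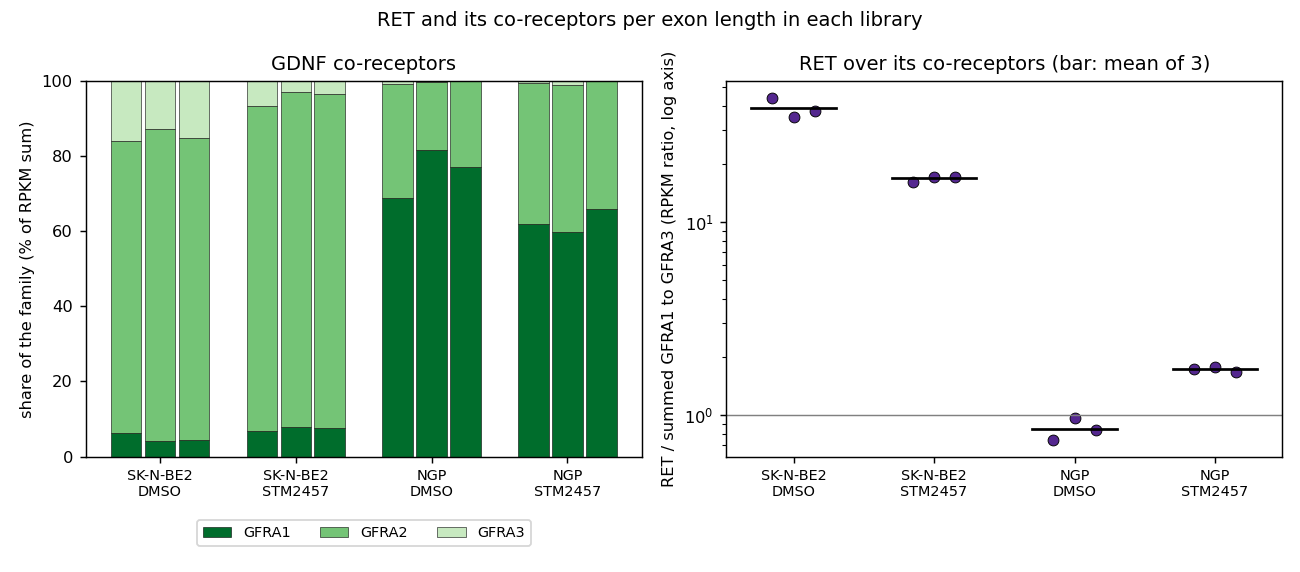
Share of the summed RPKM of GFRA1, GFRA2 and GFRA3 in percent, 1 bar per library (left), and the RPKM ratio of RET to that sum on a log axis, 1 point per library with a bar at the mean of 3 and a line at 1 (right). GFRA2 leads in SK-N-BE2 and GFRA1 in NGP, and the ratio falls from 39.0 to 16.9 in SK-N-BE2 and rises from 0.850 to 1.73 in NGP with STM2457.

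Of 12 further genes of GDNF signalling, 8 were tested in SK-N-BE2 (2 higher, 1 lower, median 0.14) and 7 in NGP (3 higher, 3 lower, median -0.43), beside the same 54.7% and 41.7% of all genes. SDC3, a syndecan that binds GDNF, fell in NGP from 125 to 41.5 CPM (-1.61, adjusted p = 1.40e-05) and was at 59.8 and 60.8 CPM in SK-N-BE2 (-0.01, adjusted p = 0.907). NCAM1, an alternative GDNF receptor with GFRA1, fell in NGP by -0.43 (adjusted p = 0.00895) and had 0.07 in SK-N-BE2 (0.531). GAS1, a GFRA-related protein that binds RET, rose in NGP by 0.90 (adjusted p = 0.00214) and had 0.20 in SK-N-BE2 (0.441). The GFRA2 ligand neurturin (NRTN) fell in NGP from 1.67 to 0.550 CPM (-1.62, adjusted p = 0.0120) and was at 0.832 and 0.408 CPM in SK-N-BE2 (-1.06, adjusted p = 0.109). That SK-N-BE2 change was a called fall without DMSO replicate 2 (-1.43, adjusted p = 0.0275) or STM2457 replicate 1 (-1.70, 0.0344), and ran from -1.70 to -0.60 with 1 library left out. Persephin (PSPN) was at 4.72 and 7.54 CPM in NGP (0.65, adjusted p = 0.0435) and 8.03 and 6.54 CPM in SK-N-BE2 (-0.33, adjusted p = 0.0480). Leaving out any library but DMSO replicate 1 ended the NGP call. Leaving out replicate 2 or 3 of either group ended the SK-N-BE2 call. That call was also lost with DESeq2 (0.0532), DESeq2 size factors (0.0523), no filter (0.0581), a replicate block (0.0641) or a joint fit (0.214). GDNF itself had at most 22 reads summed over a group.

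ALK (chr2:29192774-29921586, minus strand) rose in NGP, while its SK-N-BE2 groups overlapped. NGP had 17.5, 40.4 and 34.4 CPM in DMSO and 77.2, 72.9 and 73.2 CPM in STM2457. Every treated library was above the highest DMSO library, and DMSO replicate 1 was again the lowest. The rise was 2.38-fold (1.25, SE 0.26, adjusted p = 0.00577) and 0.96 without that replicate (adjusted p = 1.63e-05). SK-N-BE2 had 7.15, 6.00 and 7.19 CPM in DMSO and 8.29, 9.28 and 6.43 CPM in STM2457, and STM2457 replicate 3 lay among the DMSO libraries (0.20, SE 0.15, adjusted p = 0.282). The responses differed by -1.04 (SE 0.33, adjusted p = 0.0263), a call lost without SK-N-BE2 DMSO replicate 3 (0.0542), SK-N-BE2 STM2457 replicate 3 (0.0712) or NGP STM2457 replicate 1 (0.0556). NGP with STM2457 had the most ALK of the 4 groups, and the SK-N-BE2 groups were the lowest and overlapped. The gene CLIP4 covers 1.83% of the ALK exon length on the other strand, and the counting set no strand.

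LTK, the receptor most related to ALK, rose in SK-N-BE2 from 1.47 to 3.57 CPM (1.24, adjusted p = 0.000387) and was at 12.7 and 13.8 CPM in NGP (0.09, adjusted p = 0.749). Without NGP DMSO replicate 1, which had the most LTK of that group, the NGP rise was called (0.36, adjusted p = 0.0228). The ALK ligand ALKAL1 had 0 reads in every library and ALKAL2 at most 57 reads summed over a group. MDK and PTN, heparin-binding growth factors reported as ALK ligands, divided the lines. MDK was at 43.5 and 25.3 CPM in SK-N-BE2 (-0.82, adjusted p = 5.15e-05) and at 770 and 519 CPM in NGP (-0.59, adjusted p = 0.0377, lost without DMSO replicate 3 or STM2457 replicates 1 or 3). PTN was at 250 and 328 CPM in SK-N-BE2 (0.35, adjusted p = 0.00329, and 0.126 in a joint fit of all 12 libraries) and at 0.342 and 0.0625 CPM in NGP, where it was not tested.

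The difference between the responses was called for 6 of 9 members (NTRK2, NGFR and GFRA1 with the higher response in SK-N-BE2, RET, ALK and BDNF in NGP), against 30.9% of 14731 genes, 17% higher in SK-N-BE2 and 13.9% lower. The median difference was -0.36 for the members and 0.02 for all genes. GFRA2, GFRA3 and NTRK3 had differences of -0.36, -1.87 and 1.35 that were not called.

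Downstream adaptors and response genes were counted from lists of 24 and 17 genes. Of the adaptors, 23 were tested in each line, with 8 higher and 5 lower in SK-N-BE2 (median 0.23) and 4 higher and 8 lower in NGP (median -0.20), again beside 54.7% and 41.7% of all genes called. GRB10, an adaptor that binds RET and other receptor kinases, fell in both lines, in SK-N-BE2 from 3.97 to 0.509 CPM (-2.99, adjusted p = 7.29e-06) and in NGP from 7.11 to 0.928 CPM (-2.96, adjusted p = 0.000204). GAB1, a docking protein, rose in both (1.13 and 0.84, adjusted p = 6.21e-06 and 0.00738). The SHC family adaptor SHC3, of neural tissue, also rose in both (1.07 and 0.57, adjusted p = 7.89e-07 and 0.0145, the NGP call lost without STM2457 replicate 1 at 0.0668). SHC2 fell in NGP from 56.5 to 10.8 CPM (-2.42, adjusted p = 4.56e-05) and had 0.30 in SK-N-BE2 (0.0895, called without DMSO replicate 3 at 0.0235), and IRS2 fell in both (-0.58 and -1.80, adjusted p = 6.38e-05 and 0.000164).

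Of the response genes, which are induced by or feed back on receptor tyrosine kinase signalling, 12 of 17 tested were called in SK-N-BE2 (2 higher, 10 lower, median -0.30) and 7 of 16 in NGP (4 higher, 3 lower, median 0.02), where 54.7% and 41.7% of all genes were called. EGR1, an immediate early transcription factor, fell in SK-N-BE2 from 449 ± 29.8 to 102 ± 3.81 CPM (-2.17, adjusted p = 8.74e-10) and rose in NGP from 8.21 ± 4.52 to 62.9 ± 14.0 CPM (2.91, adjusted p = 0.000653), the same pair of directions as RET. FOS did likewise, with 72.5 and 18.3 CPM in SK-N-BE2 (-2.02, adjusted p = 3.51e-09) and 2.00 and 23.5 CPM in NGP (3.53, adjusted p = 0.000188). ARC fell in both lines (-1.84 and -1.06, adjusted p = 2.65e-07 and 0.000978). ETV4, a transcription factor induced by the ERK pathway, rose in both (0.48 and 1.57, adjusted p = 0.000237 and 0.000409).

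**Figure D4:**
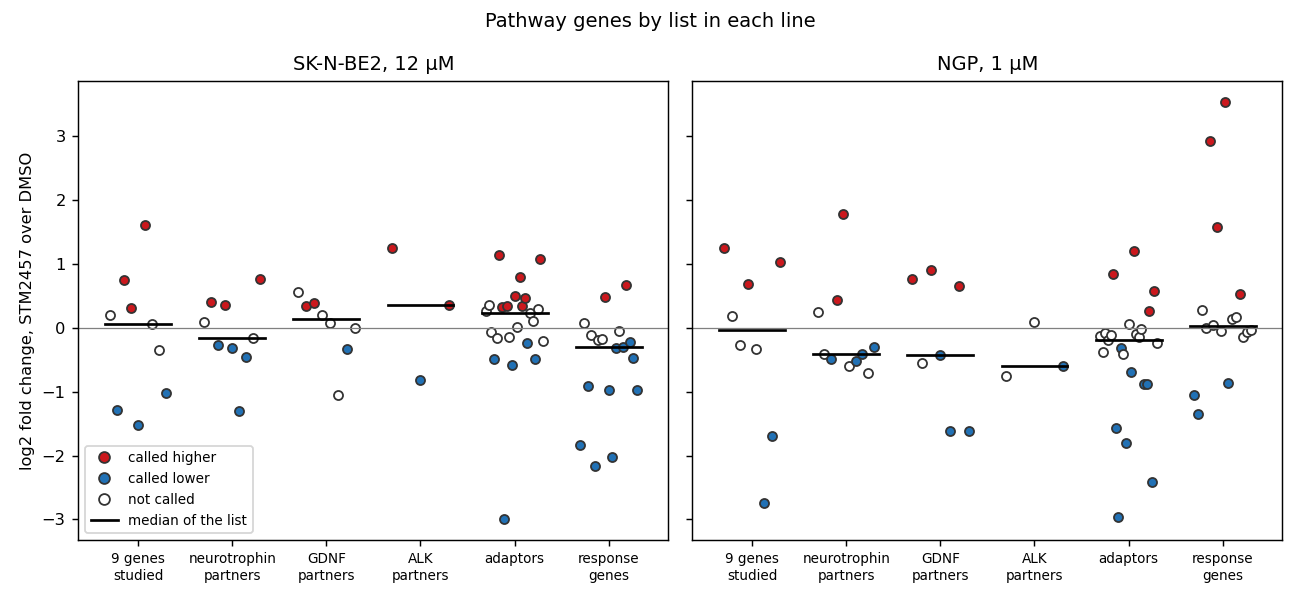
Log2 fold change of STM2457 over DMSO for the 9 genes and the 5 pathway lists in SK-N-BE2 (left) and NGP (right), 1 point per tested gene, filled where called, with a line at each list's median. The median of the response genes is -0.30 (left) and 0.02 (right), and every list holds points on both sides of 0 in at least 1 line.

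The genes whose log2 CPM followed each member most closely over the 12 libraries, among 12647 compared (12648 for NTRK3 and GFRA3), were listed by Pearson's r as a description, since all libraries share the difference between the lines. RET was most like TXNIP (r = 0.994) and ZFP36 (0.993), an immediate early gene. NTRK2 was most like SYT4 and SP8 (0.988 each), NGFR like GRK5 (0.997) and AGAP2 (0.996), and GFRA1 like LRRN1 and FGF13 (0.999 each). ALK was most like STXBP4 (0.994) and ZNF462 (0.990), BDNF like NXN (0.990) and ALPK1 (0.989), and GFRA2 like PIMREG (0.986) and HMGB2 (0.981). The scarce members had looser partners, SLC12A5 (0.948) and P2RX6 (0.944) for GFRA3 and LIF (0.839) and ZNF629 (0.796) for NTRK3. TXNIP, which like RET goes down in SK-N-BE2 and up in NGP, was at 219 and 83.5 CPM in SK-N-BE2 and 16.3 and 38.8 CPM in NGP.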

How the data were processed

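Polyadenylated RNA was sequenced after cDNA synthesis with a SMART kit, per the labels' protocols, in 12 libraries, whose titles gave line, treatment and replicate. The deposited values are whole-number read counts per gene, not normalized. Per the file headers, the authors counted exons grouped by gene name with featureCounts 2.0.5 in paired mode without counting pairs, on protein-coding genes of GENCODE 33, with no strand option. The submitters' processing notes list FastQC 0.11.5, Trimmomatic 0.36, HISAT2 2.1.0, Subread 1.5.3 and GRCh38. Even numbers made up 72.1% to 75.4% of the counts from 1 to 20, as when both reads of a pair are counted. Replicates differed by more than sampling noise (chi-square per degree of freedom 2.78 to 93.0 over pairs of replicates). In NGP with DMSO it was 93.0 for replicates 1 and 2, 61.0 for 1 and 3 and 11.0 for 2 and 3. The pairs of SK-N-BE2 with DMSO had 24.3 to 41.3. The headers name 2 sequencing runs, 1 per line.

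Each line's 6 libraries were fitted with edgeR 4.0.16 (R 4.3.3, limma 3.58.1): filterByExpr with a minimum count of 10, TMM, the quasi-likelihood test, Benjamini-Hochberg adjustment over all genes tested and a threshold of 0.05. The difference of the responses and the DMSO contrast came from 4 group means over 12 libraries. Standard errors were derived from the fold change and its F statistic. Scaling without a spike-in makes all changes relative to the other genes. The fits were tested on simulated data.

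All 9 members were named, as were receptors and ligands of the pathway lists reaching 1 CPM in a group, and in the adaptor and response lists up to 3 called genes per line by size of change. Likeness was Pearson's r of log2 CPM (prior count 2). Some genes that met this rule are not reported here. The members and lists were chosen with earlier results of these data known. Alternatives were DESeq2 size factors and upper-quartile factors within edgeR, DESeq2 1.42.0, no filter or one at a mean of 1 CPM, halved counts, robust dispersion, a joint fit, a replicate block and leaving out each library. The depth of 47242379 to 58159937 reads limits genes of few reads, and 3 replicates limit the rest.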

Additional observations from a re-analysis of the deposited data

Results flagged for a closer look

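The response to STM2457 differed between the lines by the interaction test of edgeR (SK-N-BE2 minus NGP, log2 scale, adjusted p under 0.05) for 6 members: NTRK2 by 2.82, NGFR by 1.94, GFRA1 by 1.03, RET by -2.03, ALK by -1.04 and BDNF by -1.46. RET also changed sign, from a called fall in SK-N-BE2 to a called rise in NGP. Of the other named pathway genes, the receptors and ligands SORT1 (1.07), PSPN (-0.97), NCAM1 (0.51), SDC3 (1.61), LTK (1.16) and PTN (2.79) differed, PTN from 0.342 and 0.0625 CPM in the NGP groups. Of 52 PTN reads in NGP DMSO, 37 were in replicate 1, and the PTN difference was 1.57 without it (adjusted p = 0.0211) and up to 3.20 with another library left out. The adaptors SHC2 (2.72), IRS2 (1.24) and SHC3 (0.51) differed as well, SHC3 at adjusted p = 0.0472. The response genes FOS (-5.54), EGR1 (-5.07), ETV4 (-1.08) and ARC (-0.77) had the lower response in SK-N-BE2. The SHC3 difference lost its call in 14 alternatives, among them leaving out any library but DMSO replicate 1 of either line, and that of ARC without SK-N-BE2 STM2457 replicate 2 or 3 or NGP STM2457 replicate 2. Since dose and sequencing run changed with the line, what accounts for these differences cannot be told apart.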

How the results depend on the processing

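Of 607 values of the members under alternative settings, 581 kept their direction and their side of the threshold, 14 lost a call, 9 gained one and 3 reversed, and of 1526 values of all named genes 7 reversed. The number of members called stayed between 4 and 6 for each line, between 5 and 7 for the difference and between 7 and 9 for DMSO. The reversed values were all uncalled, and the cause was not tested. For SK-N-BE2, SDC3 was 0.024 in the joint fit and -0.062 to 0.015 with 1 library left out (above 0 without DMSO replicate 1 or 3), NTRK2 was -0.32 to 0.42 (below 0 without DMSO replicate 3 or STM2457 replicate 3) and NTRK3 was -1.05 to 0.050 (above 0 without STM2457 replicate 2). For NGP, LTK was -0.066 to 0.36 (below 0 without DMSO replicate 3). For GFRA2 in SK-N-BE2, upper-quartile factors gave adjusted p = 0.0908 and the CPM filter 0.0525, while NGFR in NGP was called in the joint fit (0.0499). The GFRA2 difference was called without SK-N-BE2 DMSO replicate 1 (0.0493) or NGP DMSO replicate 1 (0.0326), and the NTRK3 difference in DMSO with halved counts (0.0422) or without NGP DMSO replicate 3 (0.0247) or SK-N-BE2 STM2457 replicate 2 (0.0481). Deviations of same-numbered DMSO and STM2457 replicates from their group means had r from -0.14 to 0.13. Not every sample correlated best with its own number. With 3 replicates per group these values cannot decide whether the samples were paired, and the labels name no pairing. With a replicate block, 6 members were called in SK-N-BE2, 4 in NGP, 6 for the difference and 8 in DMSO, NTRK3 in NGP losing its call at 0.0697. In that fit the DMSO comparison refers to replicate 1 of each line and not to the group means. Its calls thus do not check the same quantity as the main fit. The NTRK3 difference in DMSO was -0.29 in it and -1.29 in the main fit. NTRK2 in SK-N-BE2, NTRK3 and GFRA3 rest on few reads, which is where depth limits precision.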
